A study of Arabidopsis thaliana with 3 samples.

Results

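The regions described here are the FHY3 binding peaks of the pericentromeric part of chromosome 1 of Arabidopsis thaliana. They are all peaks on chromosome 1 with a midpoint from 13 to 17 Mb, from 2 peak lists obtained by chromatin immunoprecipitation and sequencing (ChIP-seq). Overlapping peaks of the lists were merged to their union, and each resulting region was marked as called in both lists or in 1. The window held 247 of the 1475 nuclear peaks of replicate 1 and 206 of the 1354 of replicate 2, which merged into 276 of 1885 nuclear regions (14.6%). These are 50.8% of the 543 regions of chromosome 1.

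Both ChIP samples came from inflorescences with flowers up to stage 8, on plants kept in long days (16 h light, 8 h dark). The plants carried the transgene 35S:3FLAG-FHY3-3HA in the fhy3-4 mutant, so that the only group with peaks is the tagged protein under the 35S promoter, which is active in most tissues, and not FHY3 under its own promoter. An antibody against the FLAG tag was used for the precipitation. The submitters describe the ChIP samples as separate biological replicates. The remaining sample, input DNA, was not analysed here, and no sample compares conditions. With a single ChIP group and no reads, the design gives no test over samples, so that values of both lists are set side by side as a description and nothing is called particular to the window.

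FHY3 activates genes of the far-red light response. It is a protein related to the transposases of Mutator-like elements, and it binds DNA directly. Pericentromeres are the stretches of heterochromatin on either side of a centromere. In Arabidopsis they hold few active genes, many transposons and their remnants, and satellite repeats towards the centromere itself. The gene table of the TAIR10.1 assembly fitted the label. Of all 4 Mb windows of chromosome 1, in steps of 100 kb, the one with the fewest protein-coding genes was exactly 13 to 17 Mb, with 230 genes. For the peak lists no build was named, so every statement about a gene assumes that the lists share the frame of that table. No sequence was at hand, so the bases under the regions are not shown. How reads that match several places were handled is not given either. Every region of the window is uncertain in this respect, whatever its score.

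The regions crowded the middle of the window. From 14 to 16 Mb lay 226 of the 276 regions (81.9%), and their median midpoint was at 14.8 Mb. The 500 kb from 14.5 to 15 Mb held 107 regions and the next 500 kb held 70. The outermost 500 kb had 14 regions at the left edge of the window and 5 at the right edge. Outside the window, the 26 bins of 1 Mb on chromosome 1 held a median of 9 regions each, with a range from 4 to 25.

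At finer scale, 9 of 40 bins of 100 kb had 10 or more regions and held 189 of them, while 2 bins had none. The densest bin ran from 14.7 to 14.8 Mb with 32 regions. There the peaks of replicate 1 covered 40.2% of the bases, those of replicate 2 covered 37.5%, and 33.4% were covered by both. Numbers of peaks per 100 kb bin went together between the lists, with a Spearman rho of 0.809 over the 40 bins, which share their library and neighbours and are not replicates. A smaller cluster of 10 regions lay apart from the main one, from 13.5 to 13.6 Mb.

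**Figure D1:**
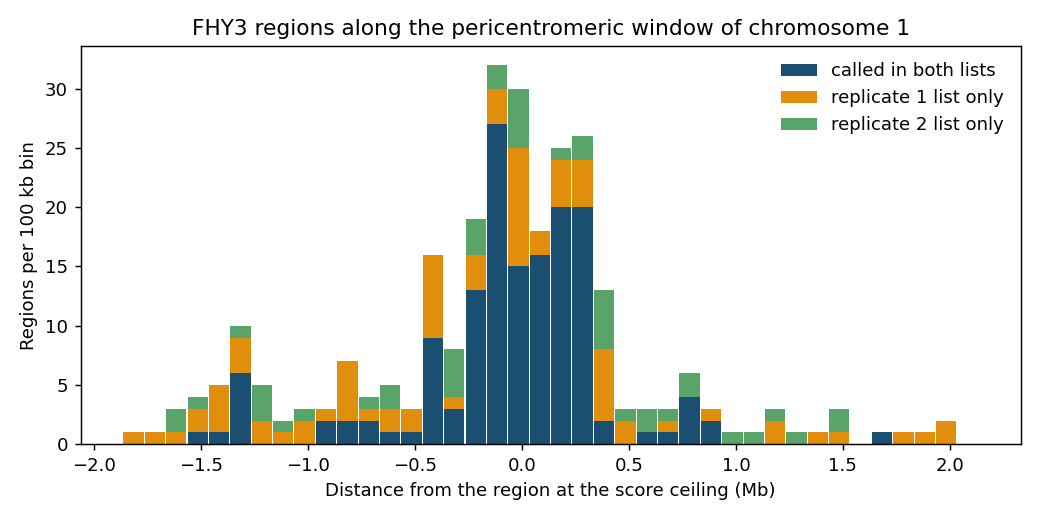
Number of FHY3 regions per 100 kb bin (y axis) against distance in Mb from the region at the score ceiling (x axis), stacked by the list or lists in which a region was called. The tallest bin has 32 regions, and the edges of the window have few, most of them called in a single list.

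Most of the crowding fell in a stretch from 14.4 to 15.2 Mb, from the first to the last 100 kb bin with at least 15 regions, a rule chosen after the counts were seen. It makes up 20% of the window and held 174 regions (63.0%), of which 123 were called in both lists. The left flank of this stretch, from 13 to 14.4 Mb, held 56 regions with a median gap of 15188 bp, and the right flank, from 15.2 to 17 Mb, held 46 with a median gap of 13369 bp. Within the stretch the median gap was 902 bp. The largest empty stretch of the window lay on the right flank, from 16372779 to 16560255, with 187477 bp free of peaks.

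Of the 276 regions, 150 were called in both lists (54.3%, 95% Wilson interval 48.5 to 60.1%), 80 in the list of replicate 1 alone and 46 in that of replicate 2 alone. Over all nuclear regions 46.8% were called in both, and on the rest of chromosome 1 the share was 53.9% (47.9 to 59.8%), so the window as a whole stood close to the rest of its chromosome. Intervals cover counting error of regions only and take neighbouring regions as independent. Within the window the share moved with position. It was 70.7% in the dense stretch (63.5 to 76.9%), 28.6% on the left flank (18.4 to 41.5%) and 23.9% on the right flank (13.9 to 37.9%). The stretch was chosen by its counts of regions, and crowded peaks overlap more easily. Peaks of replicates 1 and 2 covered 26.7% and 23.4% of its bases. On the left flank they covered 3.73% and 2.25%, and on the right 1.46% and 1.36%. The part of this crowding in the shares was not tested. From 16 to 16.5 Mb 0 of 8 regions were called in both, which allows a share of up to 37.5%, taken as 3 counts of the total.

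The gene-poorest 4 Mb of the other chromosomes, found with the same gene table, were used for comparison. These were 2 to 6 Mb on chromosome 2, 11.3 to 15.3 Mb on chromosome 3, 1.6 to 5.6 Mb on chromosome 4 and 10 to 14 Mb on chromosome 5. They held 97, 126, 158 and 191 regions, all fewer than the 276 on chromosome 1. The share called in both lists was 19.6%, 27.8%, 22.2% and 27.7% in that order, and their pooled share was 24.8% (21.5 to 28.5%). No dense stretch was cut from these other windows, so neither the dense stretch of chromosome 1 nor its flanks are set against them. The like comparison is the whole chromosome 1 window, at 54.3% (48.5 to 60.1%).

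Scores in the window were below those of the rest of chromosome 1 in both lists. The score is the authors' own value for each peak. Its scale is not stated and it runs from 23.03 to a ceiling of 3100 in each list, so it is used within a list only. In replicate 1 the 247 peaks had a median score of 42.9, against 60.1 for the 205 other peaks of chromosome 1, and for replicate 2 they stood at 42.3 and 97.1. Against the whole nuclear list, replicate 1 was at the middle, with 50.2% of its window peaks above the list median of 42.8. Replicate 2 was below it, with 31.1% above the list median of 55.4. A score of at least 100 was reached by 41 peaks of replicate 1 (16.6%, against 26.1% of all its nuclear peaks) and by 28 of replicate 2 (13.6%, against 36.3%). The gene-poorest windows of the other chromosomes were lower still, with 4.69% and 6% of their peaks at 100 or above.

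The regions called in both lists scored higher than the rest of the window. In replicate 1 their lowest, median and highest scores were 23.3, 58.4 and 3100. For replicate 2 the same 3 values were 23.2, 47.1 and 3100. Regions of replicate 1 alone ran from 23.03 through a median of 30.4 to 104.8, and those of replicate 2 alone from 23.2 through 30.7 to 57.5. The ranges overlapped, since 18 regions called in both scored under 30 in replicate 1 and 23 did in replicate 2. On the rest of chromosome 1 the median of regions called in both was 125 in replicate 1 and 227 in replicate 2. The window thus lay below the rest of its chromosome in each list.

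Regions were also matched on the score of 1 list. Among regions called in both with a replicate 1 score from 50 to 100, the replicate 2 score had a median of 48.5 over 47 regions in the window (quartiles 38.7 and 66.8) and of 133 over 28 regions elsewhere on chromosome 1 (88.4 and 180). Matched on a replicate 2 score from 50 to 100, the replicate 1 score had a median of 68.6 over 39 regions in the window (42.1 and 98.2) and of 48.1 over 24 elsewhere (32.7 and 73.9). For the first match the quartile ranges of the groups did not overlap, and for the second they did. For replicate 2 scores of 100 or more below the ceiling, the median replicate 1 score was 154 over 25 regions in the window (120 and 278). Elsewhere it was 201 over 103 regions (100.3 and 374). This wide band does not match the scores, since replicate 2 scores in it reached 857 in the window and 2421.5 elsewhere. The order at equal score is therefore not shown for it. Ranks within the lists went together less closely in the window than on the rest of its chromosome, with a Spearman rho of 0.643 over 150 regions, against 0.907 over 144 on the rest of chromosome 1. In the gene-poorest windows of the other chromosomes rho was lower still, at 0.568 over 142 regions. Without the region at the ceiling rho in the window was 0.636. These are descriptions across regions, which share libraries and neighbours, and scores of the window also span a narrower range.

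**Figure D2:**
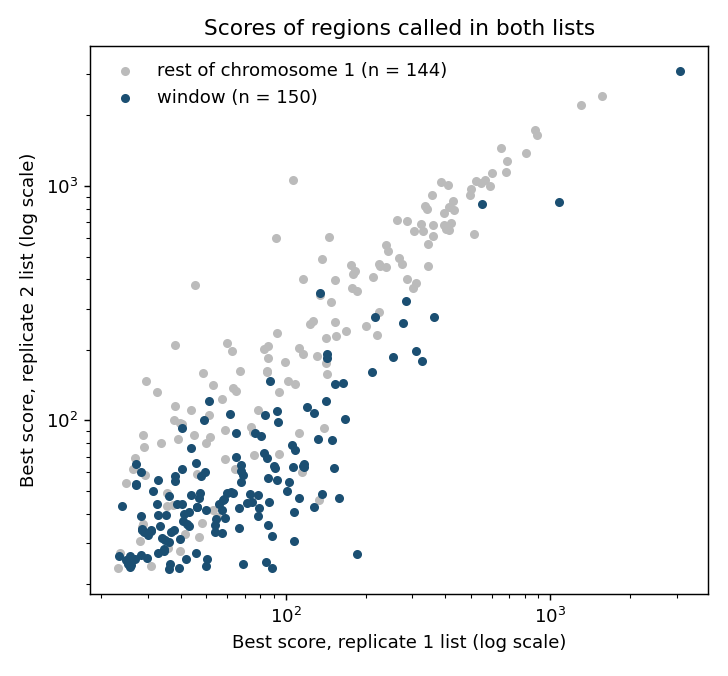
Best score of each region called in both lists, replicate 1 on the x axis and replicate 2 on the y axis, both on log scales. The 150 regions of the window lie mostly at low scores of both lists, with a single one at the ceiling of 3100, and below most of the 144 other regions of chromosome 1 at the same replicate 1 score.

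The 1 region of the window at the score ceiling in both lists ran from 14864535 to 14868911 and was 4377 bp wide. Its midpoint lay outside any annotated gene, and the nearest within 1000 bp was the pseudogene AT1G40072. The next by summed rank ran from 14445200 to 14449024, with scores of 1081 in replicate 1 and 857 in replicate 2, ranks 22 and 74 among all nuclear peaks. Its midpoint lay in the pseudogene AT1G38380. The next after it, from 14606398 to 14607802, scored 552 and 837 and lay beside the pseudogene AT1G39350. It closed a row of 3 regions within 3528 bp, in which the first scored 128 and 107 and the second 254 and 187. All 3 regions of this row passed 100 in both lists.

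The other regions among the best 10 scored from 216 to 364 in replicate 1 and from 179 to 325 in replicate 2. The region from 15131040 to 15134409 scored 364 and 277. The region from 15476930 to 15478604, beside the pseudogene AT1G41660, scored 284 and 325 and lay outside the dense stretch, with 44191 bp free of peaks on its left. The region from 14817561 to 14820846, in the pseudogene AT1G39670, scored 311 and 197, and that from 15033258 to 15036327 scored 278 and 260. The region from 15153533 to 15157078, in the pseudogene AT1G40109, scored 328 and 179. Of these best 10 regions, none had its midpoint in a protein-coding gene.

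Both lists gave a score of 100 or more to 20 of the 150 regions (13.3%), against 39.5% of all nuclear regions called in both. Of the 20, 17 lay in the dense stretch. Those not among the best 10 scored from 120 to 211 in replicate 1 and from 101 to 351 in replicate 2. Those outside included the region from 16560256 to 16561367, which scored 135 and 351, stood beyond the largest empty stretch and lay in the long non-coding RNA gene AT1G07197. It had the fourth highest score of replicate 2 in the window and rank 23 in replicate 1. The remaining 130 regions called in both were narrower, with a median width of 1125.5 bp against 2565.5 bp for the 20, and 106 of them also lay in the dense stretch.

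Regions called in 1 list were found along the window, on the flanks and in the dense stretch. The best of replicate 1 alone ran from 15044143 to 15048606, was 4464 bp wide and scored 105, within the pseudogene AT1G40095. The best of replicate 2 alone ran from 13577902 to 13579716 with a score of 57.5, within the pseudogene AT1G36200. Of the regions of replicate 1 alone, 27.5% (22 of 80) lay within 1000 bp of a region called in both, and of replicate 2 alone 21.7% (10 of 46). On the rest of chromosome 1 these were 0 of 55, which allows a share of up to 5.45%, and 2 of 68. The median distance to the nearest region called in both was 6465.5 bp and 5302 bp in the window, against 57947 bp and 64140 bp elsewhere. Such distances depend on how densely regions called in both lie. The window held 150 of them in 4 Mb, against 144 on the longer rest of chromosome 1, and the part of this density was not tested.

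Since scores differed between the window and the arms, overlap was also compared within bands of score. In equal bands of replicate 2 score, its peaks overlapped replicate 1 peaks more often in the window than on the rest of chromosome 1. Under a score of 30 this was 53.1% of 49 peaks (95% Wilson interval 39.4 to 66.3%) against 24.0% of 25 (11.5 to 43.4%). From 30 to 50 it was 75.3% of 85 (65.2 to 83.2%) against 28.3% of 46 (17.3 to 42.5%), and from 50 to 100 it was 95.5% of 44 (84.9 to 98.7%) against 65.8% of 38 (49.9 to 78.8%). The intervals were apart in the last pair of bands and overlapped in the first. In the gene-poorest windows of the other chromosomes the shares were 33.1% of 130, 53.3% of 107 (43.9 to 62.4%) and 66.7% of 45 in these bands. Peaks of replicate 1 covered 292 kb in the window and 216 kb on the longer rest of chromosome 1. A band of replicate 2 score does not fix the replicate 1 score. From 50 to 100 in replicate 2, regions called in both had a replicate 1 median of 68.6 in the window and 48.1 elsewhere. The list of replicate 1 starts at 23.03 and holds no peak below it. The parts of covered length and of this relation of scores in the overlap were not tested.

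For peaks of replicate 1 the picture differed. Under 30 the shares were 35.2% of 54 peaks in the window and 28.9% of 45 elsewhere, and from 30 to 50 they were 61.7% of 94 and 53.1% of 49, with overlapping intervals. From 50 to 100 the share was lower in the window, at 86.2% of 58 (75.1 to 92.8%) against 100% of 30 (88.6 to 100%), again with overlapping intervals. At 100 or more, nearly all peaks of either list were shared in both places. In the window the exception was the 4464 bp region of replicate 1 already described.

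**Figure D3:**
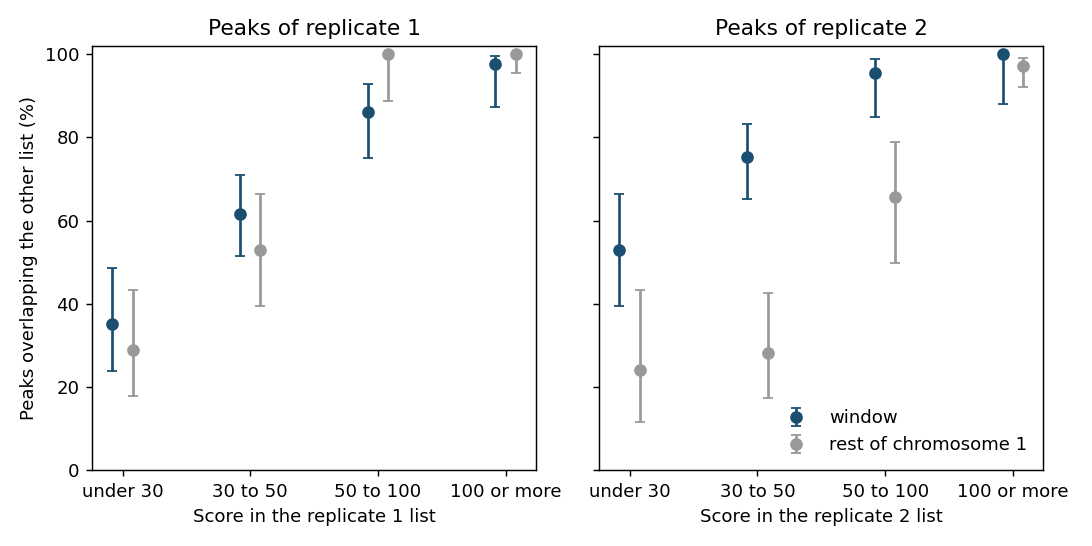
Share of peaks that overlap a peak of the other list (y axis, %) by score band (x axis), for replicate 1 on the left and replicate 2 on the right. Points are shares and bars 95% Wilson intervals, and from 30 to 50 replicate 2 peaks stand at 75.3% in the window against 28.3% on the rest of chromosome 1.

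From 30 to 50 the shared part was larger in the dense stretch than on its flanks. There, 72.1% of 68 replicate 1 peaks (60.4 to 81.3%) and 89.5% of 57 replicate 2 peaks (78.9 to 95.1%) were shared, against 34.6% of 26 (19.4 to 53.8%) and 46.4% of 28 (29.5 to 64.2%) on the flanks. Under 30, the shares in the dense stretch were 52.4% of 21 (32.4 to 71.7%) and 62.1% of 29 (44.0 to 77.3%). The flanks had 24.2% of 33 (12.8 to 41.0%) and 40.0% of 20 (21.9 to 61.3%), and these intervals overlapped. At 100 or more, 36 of 37 replicate 1 peaks and all 25 of replicate 2 were shared in the dense stretch, and all 4 and all 3 on the flanks. In the dense stretch the peaks of replicate 1 covered 26.7% of all bases and those of replicate 2 covered 23.4%, against 3.73% and 2.25% on the left flank and 1.46% and 1.36% on the right. Covered length moves with the shared part in this comparison, and its part in the overlap was not tested.

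Neighbouring regions were close. The median gap from the end of a region to the start of the next was 1974 bp over 275 gaps, against 60276 bp over the 265 gaps of the rest of chromosome 1 and 7023.5 bp in the gene-poorest windows of the other chromosomes. Gaps under 200 bp numbered 52, gaps from 200 to 1000 bp numbered 51, and 71 ran from 1000 to 5000 bp. Another 55 ran from 5000 to 20000 bp and 46 were longer. Gaps under 1000 bp made up 37.5% of all, against 4.91% on the rest of chromosome 1 and 10.4%, 18.4%, 17.2% and 22.1% in the windows of chromosomes 2 to 5.

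**Figure D4:**
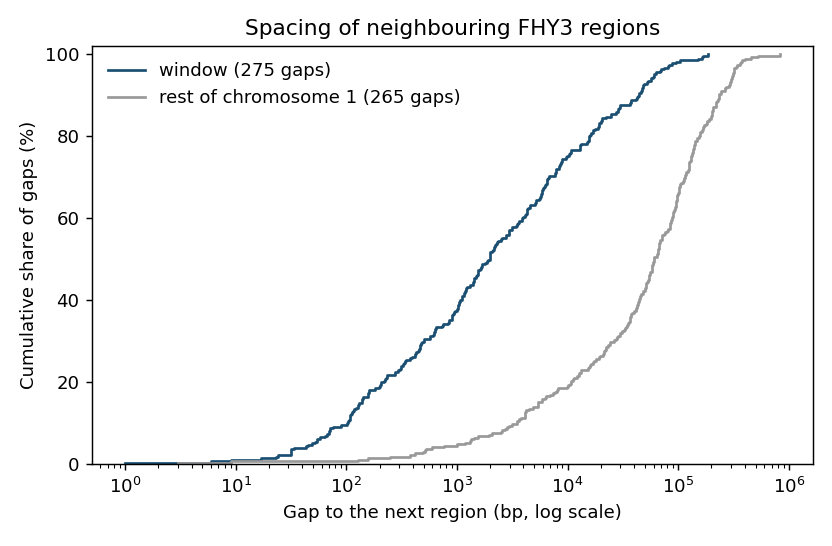
Cumulative share of gaps (y axis, %) by gap length in bp on a log scale (x axis), for the window and for the rest of chromosome 1. Of the gaps of the window 37.5% are under 1000 bp, against 4.91% elsewhere on chromosome 1.

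Joined by gaps of at most 1000 bp, the regions formed 173 groups, of which 123 were single regions, 28 were pairs and 22 had 3 or more members. Those 22 groups held 97 regions (35.1%), against 4.12% of regions in such groups on the rest of chromosome 1. In the gene-poorest windows of chromosomes 2 to 5 the shares were 3.09%, 11.1%, 9.49% and 16.2%. The group with the most members had 10 regions, 7 of them called in both lists, over 9148 bp from 14460595 to 14469742, and peaks covered 78.0% of its length. A group of 9 regions, all called in both, spanned 8276 bp from 14742375 to 14750650 with 79.8% covered. Its scores ran from 35.1 to 88.8 in replicate 1 and from 32.0 to 88.3 in replicate 2, so that no member reached 100. A group of 7 regions from 14948947 to 14966886 was 98.5% covered over 17940 bp. The closest pair called in both, from 14902767 to 14903615 and from 14903617 to 14904620, was 1 bp apart, with both midpoints in the pseudogene AT1G40077. It scored 69.1 and 24.4 on the left and 84.7 and 68.9 on the right, in replicates 1 and 2.

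Region widths ran from 206 to 8969 bp with a median of 940.5 bp and quartiles of 646.5 and 1548 bp. The rest of chromosome 1 had a median of 956 bp and quartiles of 677 and 1278 bp, so the medians were close and the upper part of the range was wider in the window. Regions called in both had a median width of 1223.5 bp, those of replicate 1 alone 827.5 bp and those of replicate 2 alone 619 bp. In all, the regions covered 342 kb. The widest called in both, from 14725659 to 14734627, joined 2 peaks of replicate 1 and 3 of replicate 2 with best scores of 216 and 277. The next were 5379 bp wide from 14961508 to 14966886, with low scores of 38.0 and 57.9, and 5340 bp wide from 15004358 to 15009697, with scores of 211 and 161.

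The narrowest called in both measured 206, 292 and 437 bp. The first, from 14465898 to 14466103, scored 42.8 and 40.6 and stood 32 bp from its left neighbour and 198 bp from its right. The other narrow ones, from 14747055 to 14747346 and from 14750214 to 14750650, belonged to the group of 9 regions. All 3 of these narrow regions sat inside crowded groups.

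Width followed score loosely in the window. Over peaks in 1-to-1 pairs the Spearman rho of width and score was 0.392 in replicate 1 and 0.219 in replicate 2 (130 pairs), against 0.864 and 0.861 on the rest of chromosome 1 (137 pairs). In the gene-poorest windows of the other chromosomes it was 0.416 and 0.412 (133 pairs). Over all peaks of a list, paired or not, rho was 0.424 and 0.471 in the window and 0.681 and 0.798 on the rest of chromosome 1. Peaks of a list share a library, and a narrow range of scores also lowers such a coefficient, so these values are a description.

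The ends of paired peaks lay close together in the 2 lists. Among the 130 regions made of 1 peak of each list, the midpoints differed by a median of 35.5 bp (quartiles 13 and 90.1), the starts by 45 bp and the ends by 30.5 bp. On the rest of chromosome 1 these medians were 56, 82 and 84 bp over 137 pairs. Both ends agreed within 100 bp in 75 of 130 pairs (57.7%, 95% Wilson interval 49.1 to 65.8%), against 43 of 137 (31.4%, 24.2 to 39.6%) on the rest of the chromosome and 36.1% (28.4 to 44.5%) in the gene-poorest windows of the others. The dense stretch had 62.5% of 104 pairs (52.9 to 71.2%) and its flanks 38.5% of 26 (22.4 to 57.5%). Among pairs scoring under 100 in both lists the shares were 56.0% of 100 in the window (46.2 to 65.3%) and 41.7% of 36 on the rest of the chromosome (27.1 to 57.8%), and these intervals overlapped.

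Large offsets were also more frequent in the window than on the arms of its chromosome, though not more than in the gene-poorest windows of the others. The larger of the start and end offsets exceeded 300 bp in 25 of 130 pairs (19.2%), against 12 of 137 (8.76%) on the rest of chromosome 1 and 34 of 133 (25.6%) in those windows. The smallest midpoint offset was 0.5 bp, in the region from 15057545 to 15058975, whose peaks were 1431 and 1424 bp wide with scores of 137 and 48.5. The largest was 833 bp, in the region from 13572129 to 13574512, with scores of 25.4 and 24.5 and 30.1% of the region common to both peaks. The peak of replicate 1 was the wider one in 48.5% of pairs in the window, in 45.1% in the gene-poorest windows of the other chromosomes and in 20.4% on the rest of chromosome 1. The lists were thus close to even in the chromosome 1 window as a whole and in the other gene-poor windows pooled. Within the chromosome 1 window the share was 52.9% of 104 pairs in the dense stretch and 30.8% of 26 on its flanks. Replicate 2 peaks were mostly the wider ones on the rest of chromosome 1.

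**Figure D5:**
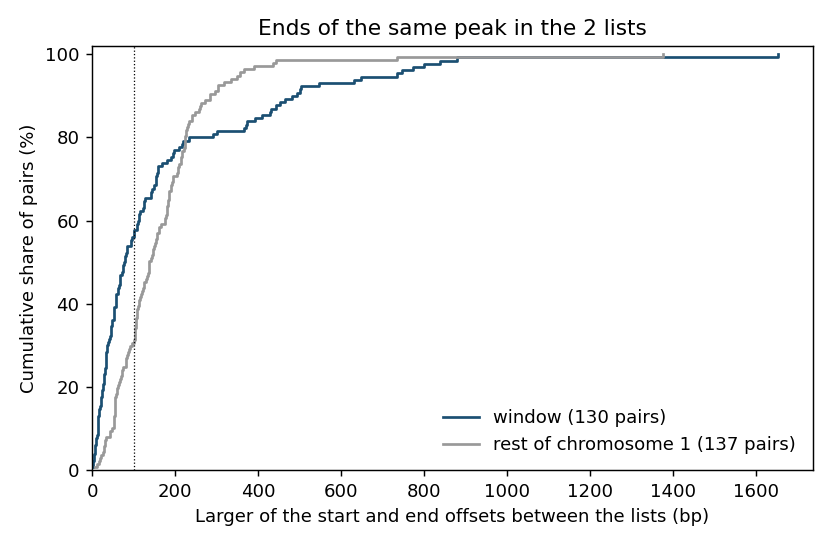
Cumulative share of 1-to-1 pairs (y axis, %) by the larger of their start and end offsets between the lists in bp (x axis), with a dotted line at 100 bp. At 100 bp the window is at 57.7% and the rest of chromosome 1 at 31.4%, and the curves cross further right, since 19.2% and 8.76% of pairs exceed 300 bp.

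Peaks of 1 list were at times split or joined in the other. Of the 150 regions called in both, 130 were made of 1 peak of each list and 20 (13.3%) of more, against 7 of 144 (4.86%) on the rest of chromosome 1. In the gene-poorest windows of chromosomes 2 to 5 the shares were 10.5%, 2.86%, 2.86% and 9.43%, from few regions each. Among the 20 of the chromosome 1 window, replicate 1 had the greater number of peaks in 11, replicate 2 in 5, and both the same number in 4.

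Few regions were at protein-coding genes. Midpoints lay in a protein-coding gene for 21 of 276 regions (7.61%), in a pseudogene for 72 (26.1%), in an RNA gene for 1 and outside annotated genes for 182 (65.9%). On the rest of chromosome 1, 58.8% lay in a protein-coding gene and 1.87% in a pseudogene. In the gene-poorest windows of the other chromosomes these were 7.17% and 39.5% of 572 regions, so few protein-coding midpoints were found there too. These shares can be read beside the annotation of the window itself, where protein-coding genes take up 12.3% of the length, pseudogenes 29.0% and bases outside genes 58.0%. In the dense stretch 4.60% of 174 regions lay in protein-coding genes, 23.6% in pseudogenes and 71.8% outside genes, and these classes make up 3.21%, 23.0% and 73.8% of its length. There, the regions were spread over the classes much as the bases are.

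The 21 midpoints in protein-coding genes fell in 13 genes, and 5 of these held a region called in both. None of the regions that reached 100 in both lists was among them, so the genes that follow were chosen after their values were seen. AT1G39070 held 6 regions called in both, from 14736639 to 14745480, and 4 of them belong to the group of 9. Their scores were 37.9 to 88.4 in replicate 1 and 23.5 to 88.3 in replicate 2. The gene SKS6, of the SKU5-similar family of multicopper oxidase-like proteins, held a region from 15604458 to 15605714 with scores of 74.2 and 44.9. AT1G38131 held one with 85.3 and 56.6, and AT1G40090 one with 49.7 and 24.0.

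ACC1, the acetyl-CoA carboxylase that makes malonyl-CoA for fatty acid elongation in the cytosol, held the other regions called in both. They ran from 13535358 to 13536911, with scores of 25.8 and 23.7, and from 13538827 to 13541395, with 23.3 and 26.4, all near the lowest score listed. ACC1 has a closely similar neighbour, ACC2, and how reads matching both were handled is not given, so these regions are uncertain. The same limit holds for the other regions of the window, those with the highest scores included. The other genes held regions of a single list only. Their highest score was 47.0 in replicate 1, in AT1G36070, above that list's median of 42.8. These genes include the kinase gene CDPK2 with 23.8 in replicate 1, and TOC75-I, of the Toc75 family of chloroplast import channels, with 35.4 in replicate 2. MLO9, of the MLO family of membrane proteins, had 23.2 in replicate 2.

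The right border of the window cut through sparse ground, with 4 regions in the 1 Mb beyond it. The 1 Mb beyond the left border held 20, above the median of 9 for bins outside the window. Just inside the window lay regions from 13081738 to 13082433, with 36.4 in replicate 1 alone, and from 16898257 to 16898974, with 30.8 in replicate 1 alone. Just outside lay a region from 12986198 to 12987241, with 41.3 in replicate 1 alone, and one from 17040622 to 17041831, called in both lists with 302 and 367.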

How the data were processed

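The submitters' processing notes name CASAVA 1.8, Bowtie2 2.2.3 and MACS 1.4.2. The sources used here give no settings, control or genome build, nor how reads that match several places were handled. The authors deposited a peak list per ChIP sample, without header, in which each peak has its ends and a score. The lists hold no reads, so depth is unknown, and numbers and scores of peaks can rise with it. Samples were grouped by title.

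Positions are printed counted from 1. Peaks overlapping by at least 1 bp were merged, and a region carries the best score of each list. The merging was checked on simulated lists. Region midpoints and the TAIR10.1 gene table gave gene classes. Shares carry 95% Wilson intervals. Python 3.11.15, numpy 2.4.6, pandas 2.3.3, scipy 1.17.1 and matplotlib 3.10.9 were used.

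The window, the members and the comparisons were chosen with earlier results of these data known. Named regions are those at the score ceiling, the best 10 by summed rank, the widest and narrowest 3, the best of each list alone, the closest pair, and, with their genes, those scoring at least 100 in both lists (some of the last are given by range). Alternatives were other overlap rules, score minimums, a wider window and each replicate alone. Base composition and motifs were not analysed here.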

Additional observations from a re-analysis of the deposited data

How the results depend on the processing

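Region numbers, widths and gaps depend on how peaks are joined and selected. The 276 regions became 47 when only peaks of at least 100 were kept and 126 with peaks under their list's median score left out. The share called in both lists, 54.3%, fell to 44.7% with a reciprocal overlap of 50%, 37.7% with midpoints within 200 bp, 42.6% with a score of at least 100 and 42.1% at or above the median. The share from 14 to 16 Mb, 81.9%, was 76.8% with gaps of up to 500 bp joined, 97.9% with a score of at least 100, 91.3% at or above the median and 75.3% in a window from 12 to 18 Mb. The median gap of 1974 bp was 1344.5 bp with reciprocal overlap, 1121.5 bp with midpoints, 5692 bp with gaps joined, 8324.5 bp with a score of at least 100, 2011 bp at or above the median and 2296 bp in the wider window. The median width of 940.5 bp was 1282 bp, 1675 bp and 1249 bp with gaps joined, a score of at least 100 and the median score. The share of all chromosome 1 regions, 50.8%, was 42.8%, 29.7% and 46.0% under the same settings and 55.2% in the wider window. The cause was not tested. With each replicate alone there were 206 to 247 regions, 85.0 to 87.9% of them from 14 to 16 Mb, median gaps of 1717 to 1738 bp, median widths of 861.5 to 952 bp and 48.7 to 54.6% of chromosome 1. In all, 27 of 46 values were marked as moved, by limits that differed between measures. A median gap of 2011 bp was marked, while 194 regions with gaps joined were not, so the tally does not measure the size of changes. With each replicate alone, the median gaps, the width of 861.5 bp and the share of 87.9% were marked. No paired analysis was possible because only 1 group of samples has peaks. Depth is unknown, so the absence of a peak does not show the absence of binding.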
